A study of Saccharomyces cerevisiae with 12 samples.

Results

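RNA levels were compared between 2 Saccharomyces cerevisiae strains that carry different lesions in SDC1. Sdc1_KO lacks the gene, and Dpy30_KO lacks only the DPY30 motif of the Sdc1 protein. The comparison holds 4 of the 12 libraries of the series, 2 from each strain, and covers 7082 nuclear identifiers of the 7126 in the deposited table. Of the rest, 30 are encoded by the mitochondrial genome (identifiers starting with Q0 and the 2 mitochondrial ribosomal RNAs) and 14 are marked by the authors as too deep to estimate. This rule leaves the mitochondrial tRNA genes and RPM1, the RNA of mitochondrial RNase P, among the identifiers called nuclear; of these, only RPM1 had enough fragments for a test, and it is 1 of the called genes counted below (1.11 and 1.07 CPM in Sdc1_KO, 0 in both Dpy30_KO libraries). Both strains, and the wild type (WT) whose levels are given for orientation, have the MGD353-13D background and were sampled in YPD at mid log phase. The WT, Sdc1_mut (a point mutant), Jhd2_KO (deletion of JHD2) and Sdc1_mut_Jhd2_KO libraries entered the fit but not the contrast. They bear on the expression filter, the scaling and the estimated spread between libraries. The labels do not give the bases removed, the marker used for a deletion, whether a strain is 1 clone, or whether the 2 libraries of a strain came from separate cultures. P-values therefore measure only the spread between libraries, which may be technical.

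Sdc1 is the yeast relative of mammalian Dpy30. It is a subunit of the Set1 complex (COMPASS), the enzyme that methylates histone H3 on lysine 4 at active genes. The DPY30 motif is a short helical stretch through which the protein forms a dimer and contacts the Bre2 subunit. Jhd2 is the demethylase that acts on the same lysine. The comparison asks whether loss of the whole subunit and loss of its motif leave the same RNA profile. Histone methylation itself was not analysed here.

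Depth was 13597606 and 17597006 fragments in Sdc1_KO and 14180681 and 11442273 in Dpy30_KO. The standard deviation over genes of the log2 difference between the 2 libraries of a strain was 0.429 in Sdc1_KO and 0.271 in Dpy30_KO, against 0.247 to 0.296 in the other 4 groups. RNA encoded by the mitochondrial genome separated the strains. It amounted to 53217 and 48206 fragments in Sdc1_KO and to 17 and 8 in Dpy30_KO, with 35121 and 62765 in WT. Dpy30_KO thus had almost none, as had Sdc1_mut (9 and 2 fragments) and Sdc1_mut_Jhd2_KO (9 and 16). Jhd2_KO had 29200 and 37856. The near absence in Dpy30_KO accompanies every nuclear difference described here. Its part in them was not tested.

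SDC1 (YDR469W, chromosome IV, 1399015 to 1399542) followed the labels. No fragment of it was counted in either Sdc1_KO library, while Dpy30_KO held 14.5 and 14.3 CPM (fragments scaled to a common library size, 14.4 ± 0.124, SD, n = 2) and WT 24.3 and 25.5 CPM. Against a floor of 3 fragments per library, which covers counting error only, SDC1 was at least 77.1-fold lower in Sdc1_KO. Its 2 neighbours on chromosome IV differed in opposite directions. TLG1, a vesicle fusion protein (SNARE), stood at 44.9 and 41.6 CPM in Sdc1_KO and 79.1 and 77.3 CPM in Dpy30_KO (log2 fold change, Sdc1_KO over Dpy30_KO, with its standard error: -0.85 ± 0.10, adjusted p = 5.1e-05, edgeR quasi-likelihood test). The Sdc1_KO libraries were below both Dpy30_KO libraries and below WT (80.4 and 84.2 CPM). UGO1, a mitochondrial outer membrane fusion protein, stood at 39.4 and 44.9 CPM in Sdc1_KO and 30.6 and 30.3 CPM in Dpy30_KO (0.47 ± 0.11, adjusted p = 0.01), but the call was lost when either Dpy30_KO replicate was left out (0.48, adjusted p = 0.06, without Dpy30_KO replicate 1; 0.46, adjusted p = 0.057, without Dpy30_KO replicate 2). WT held 52.5 and 52.4 CPM.

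Among the other genes of the Set1 complex, SWD1 and SWD3, which encode 2 of its WD40 subunits, were called higher in Sdc1_KO. SWD1 stood at 50 and 36.5 CPM in Sdc1_KO and 28.4 and 31.7 CPM in Dpy30_KO (0.53 ± 0.14, adjusted p = 0.017). SWD3 stood at 24.4 and 20.8 CPM in Sdc1_KO and 14.1 and 16.6 CPM in Dpy30_KO (0.56 ± 0.14, adjusted p = 0.011). The strains did not overlap for either gene, but both calls ended without Sdc1_KO replicate 1 (SWD1 0.27, adjusted p = 0.12, without Sdc1_KO replicate 1; SWD3 0.43, adjusted p = 0.054, without Sdc1_KO replicate 1) and without Dpy30_KO replicate 1 (SWD1 adjusted p = 0.14; SWD3 adjusted p = 0.11). SET1, the catalytic subunit, was at 86.6 and 87.1 CPM in Sdc1_KO and 77.3 and 82.8 CPM in Dpy30_KO (0.12 ± 0.08, adjusted p = 0.31), and BRE2, the partner of Sdc1, at 71.2 and 85.2 CPM in Sdc1_KO and 86.5 and 82.3 CPM in Dpy30_KO (-0.11 ± 0.11, adjusted p = 0.48). SPP1, SWD2 and SHG1 were not called either, with log2 fold changes of 0.10, 0.25 and 0.14. JHD2 was at 17 and 14.1 CPM in Sdc1_KO and 14.9 and 14.3 CPM in Dpy30_KO (0.09 ± 0.20, adjusted p = 0.78), where the strains overlapped and WT was lower (6.27 and 4.36 CPM).

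The RNA profiles of the 2 strains differed. Of 6341 nuclear identifiers with enough fragments for a test (741 had too few), 1583 were called at an adjusted p under 0.05 (25% of those tested). Of these, 870 were higher in Sdc1_KO (13.7%) and 713 lower (11.2%). Most differences were modest: the median absolute log2 fold change of called genes was 0.56. A difference of at least 2-fold was called for 283 genes (4.46%), 173 higher (2.73%) and 110 lower (1.73%), and of at least 4-fold for 34, of which 18 were higher. The number of calls depends on the libraries fitted. It was 483 when only the 4 libraries were fitted, 788 without Dpy30_KO replicate 1 and 959 without Dpy30_KO replicate 2, while calls of at least 2-fold numbered 217, 237 and 268.

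The clearest feature by position was chromosome III. Of its 160 genes tested, 128 were called higher in Sdc1_KO (80%) and 0 lower (1 at an unadjusted p under 0.05, 0 by DESeq2 and 0 by limma-trend), with a median log2 fold change of 0.92 (quartiles 0.64 and 1.16) and 151 values above 0. On the other 15 nuclear chromosomes the median lay between -0.04 and 0.09 and the share called, in either direction, between 13.2% and 29.1%. The authors' own FPKM values gave a median log2 ratio of 0.88 for chromosome III and of -0.08 to 0.07 for the others. Chromosome III holds 2.52% of the genes tested but 37% of the 2-fold higher calls, 64 genes. Without these genes and the 15 unmatched identifiers whose names start with YCL or YCR, 7 of which were called higher, 1448 of 6166 identifiers were called (23.5%), 735 higher (11.9%) and 713 lower (11.6%).

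**Figure D1:**
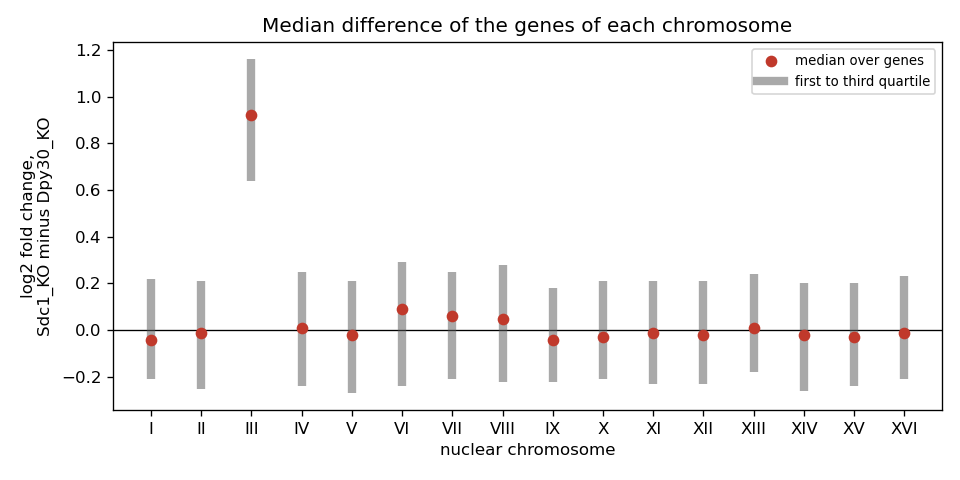
Log2 fold change of Sdc1_KO over Dpy30_KO for the genes of each nuclear chromosome, with the median as a point and the quartiles as the ends of a bar. Chromosome III lies at a median of 0.92, and the other 15 chromosomes lie between -0.04 and 0.09.

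The difference lay with Sdc1_KO. Relative to the WT mean, the median log2 level of chromosome III genes was 0.98 and 1.00 in the 2 Sdc1_KO libraries. It was -0.03 to 0.07 in the other 10 libraries of the series, Dpy30_KO included. Within Sdc1_KO the medians of the other chromosomes were -0.06 to 0.20 in replicate 1 and -0.05 to 0.09 in replicate 2. The left arm (58 genes, median log2 fold change over Dpy30_KO 0.95) and the right arm (99 genes, 0.90) were alike in this. DNA copy number was not measured, so the part of gene dosage in these levels was not tested. Chromosome III genes are therefore named as such wherever they appear below.

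One stretch of the right arm did not share the difference. The 13 genes from MAK32 to RHB1 (III, 152837 to 167999), a stretch chosen after the values were seen, had a median log2 fold change of 0.04, and 1 of them was called, against 9 of the 10 genes before it (median 1.03) and 9 of the 10 after it (median 0.97). NPP1, a nucleotide pyrophosphatase, was at 119 and 86.2 CPM in Sdc1_KO and 101 and 102 CPM in Dpy30_KO (0.02 ± 0.14, adjusted p = 0.94), and SLM5, the mitochondrial asparaginyl-tRNA synthetase, at 28.3 and 29.1 CPM in Sdc1_KO and 27.1 and 28.9 CPM in Dpy30_KO (0.04 ± 0.12, adjusted p = 0.85). The strains overlapped for both. The called gene was YCR023C, a predicted transporter, at 89 and 69.3 CPM in Sdc1_KO and 55.6 and 46.1 CPM in Dpy30_KO (0.64 ± 0.13, adjusted p = 0.0038). Directly outside the stretch, SRD1 stood at 17.6 and 18.6 CPM in Sdc1_KO and 5.21 and 5.92 CPM in Dpy30_KO (1.71 ± 0.20, adjusted p = 5.9e-05) and FEN2, a pantothenate transporter, at 92.5 and 75.8 CPM in Sdc1_KO and 33.1 and 35.9 CPM in Dpy30_KO (1.29 ± 0.12, adjusted p = 7.1e-06). There the strains were well apart, with Sdc1_KO above WT (10.3 and 11.1 CPM for SRD1 and 40.3 and 36 CPM for FEN2). In the sacCer3 annotation, 4 retrotransposon long terminal repeats and 2 tRNA genes lie between SRD1 and MAK32, and 1 of each lies between RHB1 and FEN2.

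**Figure D2:**
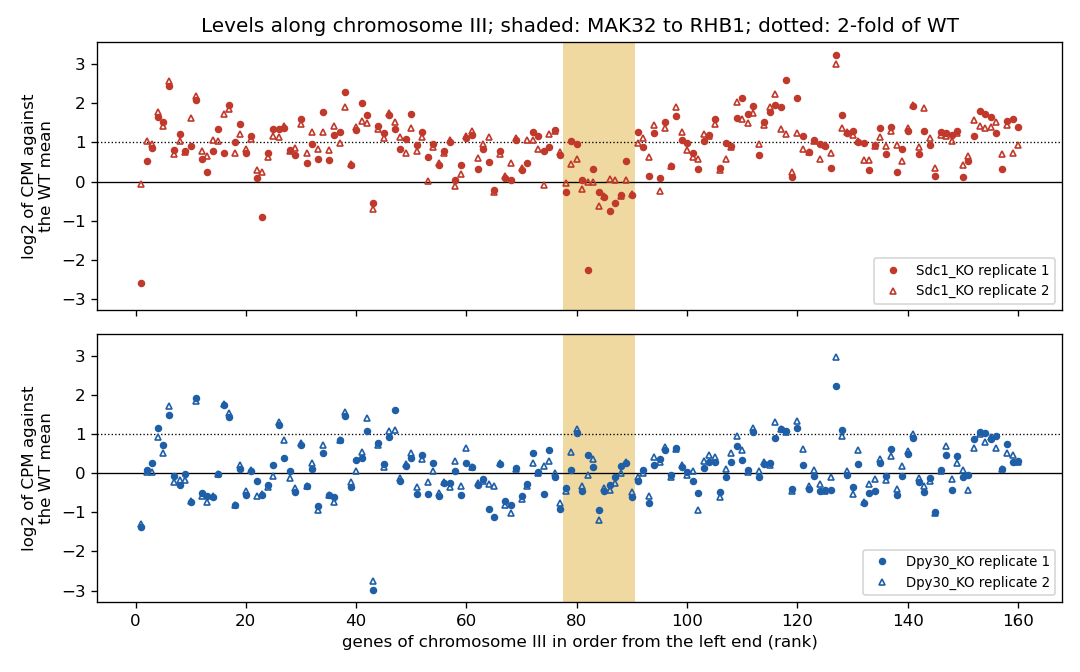
Log2 CPM of the 160 tested genes of chromosome III against the WT mean (pseudocount 1 CPM), in gene order, for both libraries of Sdc1_KO (upper panel) and of Dpy30_KO (lower panel). Sdc1_KO genes gather around 1 (medians 0.98 and 1.00), those of Dpy30_KO around 0 (0.07 and 0.06), and the shaded 13 genes from MAK32 to RHB1 have medians of -0.28 and -0.01 in Sdc1_KO and -0.09 and -0.25 in Dpy30_KO.

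Several of the most abundant called transcripts were of this kind. The 10 genes of highest mean CPM that differed at least 2-fold included PGK1, PDI1, RPS14A and the dubious YCR013C, all with chromosome III locus names. YCR013C (5444 and 8504 CPM in Sdc1_KO, 3329 and 3097 CPM in Dpy30_KO) is uncertain. It had no match in the reference annotation, so overlap with another gene was not examined. PGK1, a glycolytic kinase, stood at 6504 and 9805 CPM in Sdc1_KO and 3900 and 3719 CPM in Dpy30_KO (1.10 ± 0.17, adjusted p = 5.9e-04). PDI1, the protein disulfide isomerase, stood at 2876 and 2705 CPM in Sdc1_KO and 1324 and 1362 CPM in Dpy30_KO (1.05 ± 0.11, adjusted p = 1.7e-05). WT was nearer to Dpy30_KO for both (4514 and 4891 CPM and 1258 and 1303 CPM). The paralogs RPS14A and RPS14B, which encode the same small-subunit ribosomal protein, moved in opposite directions. RPS14A, on chromosome III, stood at 2502 and 2844 CPM in Sdc1_KO and 1222 and 1395 CPM in Dpy30_KO (1.03 ± 0.12, adjusted p = 5.5e-05), and RPS14B, on chromosome X, at 20.3 and 24.6 CPM in Sdc1_KO and 82.3 and 84.8 CPM in Dpy30_KO (-1.90 ± 0.12, adjusted p = 4.2e-07). As background, the RPS14B transcript is known to be held down by an excess of Rps14 protein. WT lay below both strains for RPS14A (1013 and 1087 CPM) and between them for RPS14B (52.2 and 57.7 CPM). Outside chromosome III, HXT3, a low-affinity glucose transporter, was at 1905 and 2231 CPM in Sdc1_KO and 4177 and 4176 CPM in Dpy30_KO (-1.01 ± 0.13, adjusted p = 1.0e-04) and TDH1, a glyceraldehyde-3-phosphate dehydrogenase, at 1289 and 1391 CPM in Sdc1_KO and 2898 and 2483 CPM in Dpy30_KO (-1.01 ± 0.13, adjusted p = 1.6e-04). HPF1, a cell wall mannoprotein, was lower as well (-1.33), as was LYS9, a lysine synthesis enzyme (901 and 1250 CPM in Sdc1_KO and 2168 and 2136 CPM in Dpy30_KO), while ATP2 was higher.

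Nuclear genes for respiration were higher in Sdc1_KO, the strain with mitochondrial RNA, and WT was higher still for most of those named. Every count of a gene list from here on compares with 25% called over all nuclear genes tested, 13.7% higher and 11.2% lower. Of the cytochrome bc1 and cytochrome c list, 11 of the 12 genes tested were called, 10 higher and 1 lower in Sdc1_KO, and the median log2 fold change over the list was 0.76, against 0.01 over all nuclear genes. RIP1, the Rieske iron-sulfur subunit, stood at 176 and 206 CPM in Sdc1_KO and 66 and 67.2 CPM in Dpy30_KO (1.52 ± 0.10, adjusted p = 6.1e-07), with WT at 291 and 282 CPM. COR1, a core subunit, stood at 636 and 723 CPM in Sdc1_KO and 372 and 347 CPM in Dpy30_KO (0.92 ± 0.12, adjusted p = 2.0e-04), with WT at 1483 and 1236 CPM. The levels ran from Dpy30_KO through Sdc1_KO to WT without overlap in both. QCR7 (0.81) and QCR6 (0.80) followed. The member against this direction was CYB2, the lactate dehydrogenase that feeds cytochrome c, at 88.1 and 135 CPM in Sdc1_KO and 263 and 256 CPM in Dpy30_KO (-1.22 ± 0.19, adjusted p = 6.6e-04).

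Of the nuclear cytochrome c oxidase genes, 7 of the 9 genes tested were called, 7 higher and 0 lower (0 at an unadjusted p under 0.05, 0 by DESeq2 and limma-trend) in Sdc1_KO, and the median log2 fold change over the list was 0.56. COX4 stood at 103 and 120 CPM in Sdc1_KO and 52.6 and 42.9 CPM in Dpy30_KO (1.22 ± 0.12, adjusted p = 1.2e-05) and COX5A, the aerobic form of subunit V, at 82.6 and 85.8 CPM in Sdc1_KO and 36.6 and 36 CPM in Dpy30_KO (1.21 ± 0.10, adjusted p = 3.9e-06). COX9, COX8 and COX6 had log2 fold changes of 1.06, 1.04 and 0.56. COX5B, the hypoxic form of subunit V, was at 93.6 and 146 CPM in Sdc1_KO and 99.8 and 95.3 CPM in Dpy30_KO (0.30 ± 0.15, adjusted p = 0.18), so that the strains overlapped, and COX13 (0.30 ± 0.11, adjusted p = 0.069) was not called either.

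Of the ATP synthase genes, 15 of the 17 genes tested were called, 14 higher and 1 lower in Sdc1_KO, and the median log2 fold change over the list was 0.88. ATP2, the catalytic beta subunit, stood at 1772 and 1858 CPM in Sdc1_KO and 823 and 858 CPM in Dpy30_KO (1.11 ± 0.10, adjusted p = 1.0e-05), and WT held 1979 and 1998 CPM. INH1, the inhibitor protein of the enzyme, had the largest difference of the list, at 42.3 and 45.7 CPM in Sdc1_KO and 15.9 and 14.9 CPM in Dpy30_KO (1.51 ± 0.13, adjusted p = 6.1e-06). ATP7, ATP17 and ATP5 were higher by log2 values of 1.23, 1.16 and 1.12. In all 5 the Sdc1_KO libraries lay well above those of Dpy30_KO, without overlap. STF1, which stabilises the inhibitor, was lower (-0.46 ± 0.12, adjusted p = 0.012), a call that ended without Dpy30_KO replicate 1 (-0.43, adjusted p = 0.079, without Dpy30_KO replicate 1).

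The TCA cycle gave the same picture: 11 of the 15 genes tested were called, 10 higher and 1 lower in Sdc1_KO, and the median log2 fold change over the list was 0.79. Called members numbered 7 without Dpy30_KO replicate 1. SDH2, the iron-sulfur subunit of succinate dehydrogenase, stood at 192 and 229 CPM in Sdc1_KO and 68.2 and 64.2 CPM in Dpy30_KO (1.67 ± 0.10, adjusted p = 2.6e-07). ACO1, aconitase, also an iron-sulfur enzyme, stood at 464 and 770 CPM in Sdc1_KO and 218 and 263 CPM in Dpy30_KO (1.36 ± 0.19, adjusted p = 2.3e-04). SDH1, the flavoprotein subunit, stood at 373 and 617 CPM in Sdc1_KO and 209 and 204 CPM in Dpy30_KO (1.26 ± 0.19, adjusted p = 3.6e-04). Sdc1_KO lay above Dpy30_KO in every library for these genes, and WT was highest for SDH1 (1437 and 1192 CPM). SDH3 (0.90) and IDH1 (0.84) were higher too, and LSC2, a succinyl-CoA ligase subunit, was lower (-0.37 ± 0.10, adjusted p = 0.015) with a call that ended without either Dpy30_KO replicate (-0.38, adjusted p = 0.065, without Dpy30_KO replicate 1; -0.35, adjusted p = 0.077, without Dpy30_KO replicate 2). HAP4, the limiting activator of respiratory genes, was not called: it stood at 337 and 580 CPM in Sdc1_KO and 687 and 534 CPM in Dpy30_KO (-0.41 ± 0.20, adjusted p = 0.14), and the strains overlapped. The CCAAT letters bound by the Hap complex (either strand, 500 bases before the gene start) were found in 10 of the 12 promoters of the bc1 and cytochrome c list (83.3%) and in 62.4% of all 6105 promoters.

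**Figure D3:**
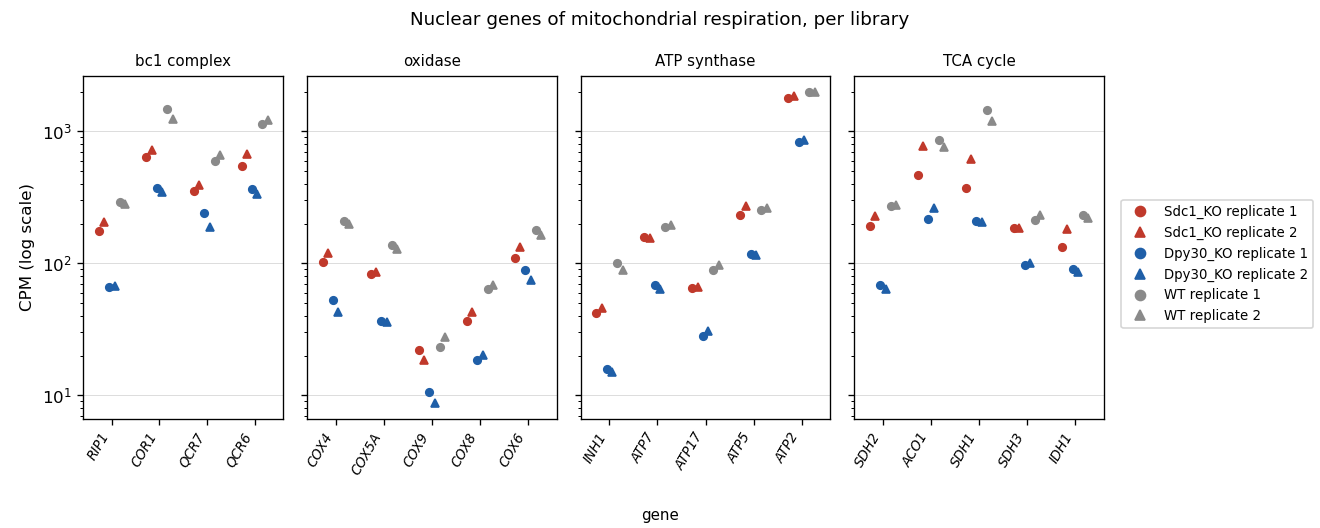
CPM on a log axis of the named higher genes of the bc1 complex, cytochrome c oxidase, ATP synthase and TCA cycle in each library of Sdc1_KO, Dpy30_KO and WT. For every gene drawn both Sdc1_KO points lie above both Dpy30_KO points, as for RIP1 with 176 and 206 CPM over 66 and 67.2 CPM.

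The retrograde response, through which yeast cells with failing mitochondria raise peroxisomal and early TCA genes, did not separate the strains as one. In this list, 6 of the 15 genes tested were called, against 25% of all nuclear genes. In Sdc1_KO 5 were higher and 1 lower, and the median log2 fold change over the list was 0.20. CIT2, the peroxisomal citrate synthase and its usual reporter, was higher in Sdc1_KO, at 183 and 287 CPM in Sdc1_KO and 68.2 and 107 CPM in Dpy30_KO (1.43 ± 0.27, adjusted p = 0.002), but lies on chromosome III. DLD3, a cytosolic lactate dehydrogenase and another reporter, stood at 225 and 149 CPM in Sdc1_KO and 70.3 and 72 CPM in Dpy30_KO (1.39 ± 0.19, adjusted p = 2.3e-04) on chromosome V. WT lay between the strains for both genes (111 and 151 CPM and 105 and 124 CPM). The regulators RTG1 (-0.26, adjusted p = 0.21), RTG2 (0.16, 0.31) and RTG3 (0.13, 0.34) were not called. MKS1, a negative regulator, was lower (-0.46 ± 0.10, adjusted p = 0.0072), a call that ended without Dpy30_KO replicate 1 (-0.43, adjusted p = 0.056, without Dpy30_KO replicate 1).

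Mitochondrial translation genes did not follow those of respiration. Of the mitochondrial ribosomal proteins, 21 of the 68 genes tested were called, against 25% of all nuclear genes. In Sdc1_KO 3 were higher and 18 lower, against 13.7% and 11.2% of all nuclear genes. The 3 higher genes all lie on chromosome III, and the median log2 fold change over the list was -0.22. Calls numbered 38 without Sdc1_KO replicate 2, 6 without Dpy30_KO replicate 1 and 10 without Dpy30_KO replicate 2. MRP20 stood at 88.6 and 110 CPM in Sdc1_KO and 194 and 191 CPM in Dpy30_KO (-0.95 ± 0.12, adjusted p = 1.1e-04), RSM19 at 9.64 and 10.8 CPM in Sdc1_KO and 16.4 and 17.5 CPM in Dpy30_KO (-0.72 ± 0.15, adjusted p = 0.0038) and MRP4 at 46.6 and 53.6 CPM in Sdc1_KO and 69.9 and 82.6 CPM in Dpy30_KO (-0.60 ± 0.11, adjusted p = 0.0015). Sdc1_KO was lower in every library for these 3 genes. TIM23, the import channel of the inner membrane, was lower as well, at 122 and 178 CPM in Sdc1_KO and 305 and 284 CPM in Dpy30_KO (-0.97 ± 0.14, adjusted p = 3.8e-04).

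Iron uptake genes gave the largest differences in the opposite direction. Yeast raises them through the transcription factor Aft1 when iron-sulfur cluster production in mitochondria falls short or iron is scarce. Of the iron regulon, 18 of the 30 genes tested were called, 1 higher and 17 lower in Sdc1_KO, and the median log2 fold change over the list was -0.53. FIT3 and FIT2 encode cell wall proteins that retain siderophore-bound iron, SIT1 a siderophore transporter, FET3 the ferroxidase of high-affinity uptake, and TIS11 (CTH2) an RNA-binding protein that lowers transcripts of iron-using enzymes in iron scarcity. The letters GCACCC, the core that Aft1 binds, were found on either strand in the 500 bases before the start of 15 of the 17 lower iron genes, in 20 of the 30 genes of the list (66.7%) and in 7.65% of all 6105 promoters. A match of letters shows no binding. One site of each of the 5 genes is shown, read from the sacCer3 genome, which is the RefSeq R64 assembly, on the strand of the gene, with the motif in capitals on that strand or as its complement.
FIT3, chrXV:1061324-1061349, minus strand, 284 bases before the start: atttttttttGCACCCtgtttgttcc
FIT2, chrXV:1059256-1059281, plus strand, 265 bases before the start: ttaaaacaatGCACCCtaagttcaaa
SIT1, chrV:27459-27484, plus strand, 188 bases before the start: acacatttgaGGGTGCaatctggttc
FET3, chrXIII:388562-388587, plus strand, 250 bases before the start: cttcaaaagtGCACCCatttgcaggt
TIS11, chrXII:416891-416916, minus strand, 248 bases before the start: gccgcaaaatGCACCCacattaaaga

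FIT3 (YOR383C, chromosome XV, 1060441 to 1061055) stood at 36.9 and 25.9 CPM in Sdc1_KO and 789 and 802 CPM in Dpy30_KO (-4.66 ± 0.16, adjusted p = 2.6e-09). FIT2 stood at 17.8 and 11.6 CPM in Sdc1_KO and 217 and 197 CPM in Dpy30_KO (-3.82 ± 0.17, adjusted p = 2.3e-08). WT lay with Sdc1_KO for FIT3 (38.8 and 36.8 CPM) and below both strains for FIT2 (7.11 and 6.95 CPM). SIT1 was at 19.2 and 17.3 CPM in Sdc1_KO and 99.2 and 120 CPM in Dpy30_KO (-2.59 ± 0.12, adjusted p = 2.3e-08), FET3 at 30.4 and 27.2 CPM in Sdc1_KO and 153 and 162 CPM in Dpy30_KO (-2.46 ± 0.11, adjusted p = 2.3e-08) and TIS11 at 5.34 and 5.46 CPM in Sdc1_KO and 39.6 and 42.5 CPM in Dpy30_KO (-2.92 ± 0.14, adjusted p = 2.3e-08). In each of the 5 genes the Dpy30_KO libraries were far above those of Sdc1_KO. The regulator AFT1 itself was lower in Sdc1_KO by a small amount (64.4 and 65 CPM in Sdc1_KO and 93.5 and 98.2 CPM in Dpy30_KO, -0.57 ± 0.09, adjusted p = 4.7e-04), and AFT2 was not called (-0.15 ± 0.10, adjusted p = 0.27). CCC1, which carries iron into the vacuole, was the list's member in the other direction, at 70.6 and 90.9 CPM in Sdc1_KO and 48.6 and 46.1 CPM in Dpy30_KO (0.77 ± 0.13, adjusted p = 0.001).

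Of the ferric reductases that prepare iron and copper for uptake, 4 of the 8 genes tested were called, 0 higher (0 at an unadjusted p under 0.05, 0 by DESeq2 and limma-trend) and 4 lower in Sdc1_KO, and the median log2 fold change over the list was -0.51. FRE1, the main surface reductase, stood at 25.5 and 18.7 CPM in Sdc1_KO and 46.4 and 54.7 CPM in Dpy30_KO (-1.20 ± 0.15, adjusted p = 9.7e-05), and FRE7 at 12.8 and 10.6 CPM in Sdc1_KO and 27.3 and 25.2 CPM in Dpy30_KO (-1.17 ± 0.16, adjusted p = 1.7e-04). FRE6 (-0.84) and FRE5 (-0.78) were lower by less. The strains did not overlap for these 4 genes. Of the zinc regulon, 4 of the 11 genes tested were called, against 25% of all nuclear genes. In Sdc1_KO 4 were higher and 0 lower (0 at an unadjusted p under 0.05, 0 by DESeq2 and limma-trend). The median log2 fold change over the list was 0.27. Calls numbered 8 without Sdc1_KO replicate 2. IZH1 and IZH2, membrane proteins linked to zinc and sterol metabolism, had log2 fold changes of 1.34 and 1.12, and ZRC1, a vacuolar zinc transporter, stood at 278 and 223 CPM in Sdc1_KO and 160 and 156 CPM in Dpy30_KO (0.66 ± 0.11, adjusted p = 8.5e-04). IZH4 was at 41.4 and 84.9 CPM in Sdc1_KO and 11 and 7.69 CPM in Dpy30_KO (2.74 ± 0.30, adjusted p = 3.9e-05), a value that moved to 2.13 without Sdc1_KO replicate 2.

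**Figure D4:**
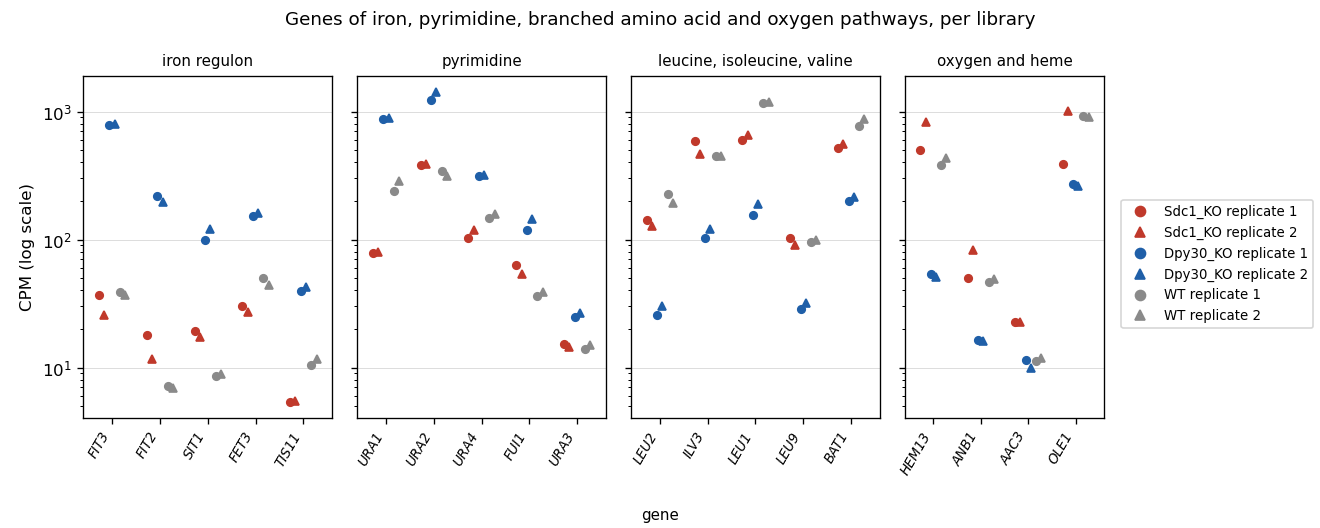
CPM on a log axis of named genes of iron uptake, pyrimidine synthesis, leucine, isoleucine and valine synthesis, and oxygen and heme in each library of Sdc1_KO, Dpy30_KO and WT. Dpy30_KO lies highest for the iron and pyrimidine genes (URA1 at 877 and 882 CPM) and lowest for the branched amino acid genes and HEM13 (53.7 and 51.4 CPM).

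Most called genes of the list for heme synthesis and oxygen-regulated growth were higher in Sdc1_KO. In yeast, heme made in mitochondria reports oxygen, and the repressor Rox1 silences hypoxic genes when heme is plentiful. Of this list, 11 of the 19 genes tested were called, 9 higher and 2 lower in Sdc1_KO, and the median log2 fold change over the list was 0.30. HEM13, the oxygen-using coproporphyrinogen oxidase of heme synthesis, gave the largest rise of all genes under the naming rule. It stood at 504 and 829 CPM in Sdc1_KO and 53.7 and 51.4 CPM in Dpy30_KO (3.66 ± 0.21, adjusted p = 1.6e-07), and WT held 380 and 431 CPM. ANB1, the hypoxic form of translation factor eIF5A, stood at 49.6 and 82.8 CPM in Sdc1_KO and 16.3 and 16.1 CPM in Dpy30_KO (2.03 ± 0.21, adjusted p = 2.0e-05). AAC3, the anaerobic ADP/ATP carrier, was at 22.7 and 22.7 CPM in Sdc1_KO and 11.4 and 9.9 CPM in Dpy30_KO (1.09 ± 0.16, adjusted p = 3.1e-04). WT lay far above Dpy30_KO and below both Sdc1_KO libraries for HEM13 and ANB1, while AAC3 in WT (11.2 and 11.9 CPM) was close to Dpy30_KO.

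OLE1, the fatty acid desaturase, stood at 390 and 1006 CPM in Sdc1_KO and 270 and 263 CPM in Dpy30_KO (1.39 ± 0.29, adjusted p = 0.0044). Its 2 Sdc1_KO libraries differed from each other, and the value moved to 0.55 without Sdc1_KO replicate 2. HEM14, the next enzyme of heme synthesis, was higher (0.89 ± 0.11, adjusted p = 1.0e-04), and is uncertain because it overlaps BUD25. In the other direction, YHB1, the nitric oxide dioxygenase, stood at 1009 and 1205 CPM in Sdc1_KO and 1886 and 1885 CPM in Dpy30_KO (-0.77 ± 0.12, adjusted p = 5.6e-04), and MOT3, a repressor of hypoxic genes, at 52.7 and 65.9 CPM in Sdc1_KO and 97.3 and 88.1 CPM in Dpy30_KO (-0.64 ± 0.11, adjusted p = 0.0014). Neither gene's groups overlapped. The Rox1 core ATTGTT (either strand) was in the promoters of 8 of the 9 higher genes and of both lower genes, in 14 of the 19 of the list (73.7%) and in 48.8% of all promoters. Sites are shown for ANB1, where 4 matches stand, and HEM13.
ANB1, chrX:525678-525703, minus strand, 312 bases before the start: tcgtttttccATTGTTcgttcgttgc
ANB1, chrX:525647-525672, minus strand, 281 bases before the start: ttttcgccctATTGTTctcgagccta
HEM13, chrIV:546450-546475, plus strand, 182 bases before the start: tgctttgcccATTGTTctcgtttcga

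The DAN/TIR genes, cell wall mannoproteins of anaerobic growth, were divided: 6 of the 10 genes tested were called, 4 higher and 2 lower in Sdc1_KO, and the median log2 fold change over the list was 0.02. Calls numbered 3 without Dpy30_KO replicate 2. TIR1 stood at 118 and 455 CPM in Sdc1_KO and 30.8 and 33.7 CPM in Dpy30_KO (3.15 ± 0.44, adjusted p = 2.3e-04). Its 2 Sdc1_KO libraries were far apart, and the log2 fold change moved to 3.81 without Sdc1_KO replicate 1 and to 1.87 without Sdc1_KO replicate 2. DAN1, at 9.51 and 26.5 CPM in Sdc1_KO and 1.86 and 3.09 CPM in Dpy30_KO (2.89 ± 0.48, adjusted p = 8.7e-04), moved to 1.96 without Sdc1_KO replicate 2. TIR2 was higher in both libraries (0.75 ± 0.17, adjusted p = 0.0063). WT held 373 and 382 CPM for TIR1, near Sdc1_KO replicate 2, but 2.81 and 3.18 CPM for DAN1, near Dpy30_KO.

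Most genes for the synthesis of leucine, isoleucine and valine were higher in Sdc1_KO. Part of this pathway runs in mitochondria, and Leu3 activates it when its intermediate isopropylmalate builds up. Of the list, 12 of the 13 genes tested were called, 11 higher and 1 lower in Sdc1_KO, and the median log2 fold change over the list was 1.00. Without its 2 members on chromosome III, 9 of 11 were higher, with a median of 0.66. The Leu3 letters (CCGG, any 2 bases, then CCGG, the same on both strands) were in the promoters of 5 of the 11 higher genes. They were in 5 of the 13 promoters of the list (38.5%) and in 0.278% of all promoters. Sites of 3 named genes are shown as above.
LEU1, chrVII:478852-478877, minus strand, 217 bases before the start: cgaaaattCCGGGACCGGcgaaattt
LEU2, chrIII:91118-91143, plus strand, 198 bases before the start: tgagagcgCCGGAACCGGcttttcat
BAT1, chrVIII:517377-517402, plus strand, 147 bases before the start: tgtgtttgCCGGTACCGGcctttaag

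LEU2, isopropylmalate dehydrogenase, lies on chromosome III and stood at 143 and 128 CPM in Sdc1_KO and 25.5 and 30.1 CPM in Dpy30_KO (2.29 ± 0.14, adjusted p = 2.4e-07), further apart than the median of that chromosome. LEU1, isopropylmalate isomerase and an iron-sulfur enzyme, stood at 603 and 661 CPM in Sdc1_KO and 155 and 191 CPM in Dpy30_KO (1.87 ± 0.15, adjusted p = 2.3e-06). WT was highest for both (227 and 192 CPM and 1157 and 1184 CPM). ILV3, dihydroxyacid dehydratase and also an iron-sulfur enzyme, was at 586 and 465 CPM in Sdc1_KO and 102 and 120 CPM in Dpy30_KO (2.25 ± 0.14, adjusted p = 2.6e-07). LEU9, an isopropylmalate synthase, was at 103 and 91.1 CPM in Sdc1_KO and 28.4 and 31.8 CPM in Dpy30_KO (1.69 ± 0.12, adjusted p = 8.9e-07). BAT1, the mitochondrial branched-chain transaminase, was at 518 and 562 CPM in Sdc1_KO and 200 and 214 CPM in Dpy30_KO (1.38 ± 0.12, adjusted p = 4.6e-06). No library of one strain reached the range of the other in these 5 genes. BAT2, the cytosolic transaminase, differed in the other direction (-0.64 ± 0.17, adjusted p = 0.014), a call that ended without Dpy30_KO replicate 2 (-0.57, adjusted p = 0.084, without Dpy30_KO replicate 2). LEU3 was not called (0.05 ± 0.12, adjusted p = 0.78). BIO2, the iron-sulfur enzyme of biotin synthesis, was also higher in Sdc1_KO, at 80.9 and 108 CPM in Sdc1_KO and 25.6 and 27.3 CPM in Dpy30_KO (1.83 ± 0.15, adjusted p = 2.7e-06), while BIO4 (-1.11) and BIO5 (-1.18), for the preceding step and an uptake carrier, were lower.

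Genes of pyrimidine synthesis were lower in Sdc1_KO: 8 of the 13 genes tested were called, 1 higher and 7 lower in Sdc1_KO, and the median log2 fold change over the list was -0.55. URA1, dihydroorotate dehydrogenase, an enzyme that in this yeast uses fumarate and needs no respiratory chain, showed the third largest fall outside SDC1. It stood at 77.9 and 79.3 CPM in Sdc1_KO and 877 and 882 CPM in Dpy30_KO (-3.48 ± 0.14, adjusted p = 8.6e-09), with WT between them (241 and 288 CPM). URA2, which catalyses the first 2 steps, was at 379 and 388 CPM in Sdc1_KO and 1235 and 1432 CPM in Dpy30_KO (-1.80 ± 0.11, adjusted p = 3.3e-07), and URA4, dihydroorotase, at 102 and 118 CPM in Sdc1_KO and 312 and 320 CPM in Dpy30_KO (-1.52 ± 0.10, adjusted p = 6.1e-07). The uridine carrier gene FUI1 was at 63.3 and 53.4 CPM in Sdc1_KO and 119 and 145 CPM in Dpy30_KO (-1.18 ± 0.12, adjusted p = 2.8e-05), and URA3, which decarboxylates orotidylate, at 15.2 and 14.5 CPM in Sdc1_KO and 24.8 and 26.8 CPM in Dpy30_KO (-0.79 ± 0.12, adjusted p = 5.1e-04). WT lay at or below Sdc1_KO for URA2, FUI1 and URA3 and above it for URA1 and URA4. FUR1, which salvages uracil, was higher (0.67 ± 0.12, adjusted p = 0.0016). The letters CGG, any 6 bases, then CCG are bound by the pathway activator Ppr1. They were chosen after the values were seen and read the same on both strands. The promoters of 4 of the 7 lower genes held them, as did 4 of the 13 of the list (30.8%) and 2.65% of all promoters. PPR1 was not called (0.22 ± 0.19, adjusted p = 0.42). A site of each gene is shown.
URA1, chrXI:25027-25052, plus strand, 181 bases before the start: cgatcttCGGCATTCGCCGaaaattt
URA4, chrXII:963648-963673, plus strand, 130 bases before the start: catcattCGGAGAATTCCGatgaatc
FUI1, chrII:140593-140618, minus strand, 351 bases before the start: tgatgctCGGGATTTGCCGgtttcgt
URA3, chrV:116008-116033, plus strand, 152 bases before the start: tttgattCGGTAATCTCCGagcagaa

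Other amino acid pathways were mixed. Of the histidine, lysine, arginine and aromatic genes, 26 of the 40 genes tested were called, 20 higher and 6 lower in Sdc1_KO, and the median log2 fold change over the list was 0.36, and calls numbered 16 without Dpy30_KO replicate 1. HIS4, on chromosome III, stood at 1485 and 1797 CPM in Sdc1_KO and 555 and 525 CPM in Dpy30_KO (1.60 ± 0.12, adjusted p = 1.7e-06). ARG1, argininosuccinate synthase, was at 318 and 97.3 CPM in Sdc1_KO and 48 and 54.5 CPM in Dpy30_KO (2.02 ± 0.38, adjusted p = 0.002). Its value moved to 0.91 without Sdc1_KO replicate 1 and to 2.63 without Sdc1_KO replicate 2. LYS1, the last enzyme of lysine synthesis, was lower, at 177 and 182 CPM in Sdc1_KO and 358 and 344 CPM in Dpy30_KO (-0.96 ± 0.09, adjusted p = 1.4e-05). GCN4, the general activator of these pathways, which is controlled mainly by translation, stood lower too, at 468 and 541 CPM in Sdc1_KO and 803 and 797 CPM in Dpy30_KO (-0.67 ± 0.10, adjusted p = 5.9e-04). The 2 strains did not overlap for these 4 genes.

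Calls among methionine and sulfur genes depended on single libraries. Of the list, 16 of the 29 genes tested were called, 14 higher and 2 lower in Sdc1_KO, and the median log2 fold change over the list was 0.71, but calls numbered 27 without Sdc1_KO replicate 2, 6 without Dpy30_KO replicate 1 and 10 without Dpy30_KO replicate 2, and 1 when only the 4 libraries were fitted. MET16, a sulfate assimilation enzyme, stood at 150 and 60 CPM in Sdc1_KO and 37.5 and 40.6 CPM in Dpy30_KO (1.43 ± 0.29, adjusted p = 0.0036). Sdc1_KO replicate 1 was far above replicate 2, and the value moved to 0.61 without Sdc1_KO replicate 1. MET22, a phosphatase of the same pathway, was at 228 and 133 CPM in Sdc1_KO and 94.9 and 85.2 CPM in Dpy30_KO (1.00 ± 0.18, adjusted p = 0.0017), with Sdc1_KO replicate 1 again the highest library.

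Genes of purine synthesis were higher in Sdc1_KO in part: 11 of the 22 genes tested were called, 10 higher and 1 lower. The median log2 fold change over the list was 0.37. Calls numbered 17 without Sdc1_KO replicate 2 and 6 without Dpy30_KO replicate 1. ADE17, which closes the purine ring, stood at 425 and 224 CPM in Sdc1_KO and 94.2 and 99.1 CPM in Dpy30_KO (1.75 ± 0.26, adjusted p = 4.3e-04). IMD2, the IMP dehydrogenase of guanine synthesis, stood at 512 and 699 CPM in Sdc1_KO and 160 and 214 CPM in Dpy30_KO (1.70 ± 0.22, adjusted p = 1.6e-04). WT was far below both strains for ADE17 (20.7 and 25.1 CPM) and with Sdc1_KO for IMD2 (677 and 711 CPM). ADE1 (0.88 ± 0.17, adjusted p = 0.0026) and IMD4 (0.95 ± 0.16, adjusted p = 8.0e-04) were higher too, with no overlap. With only the 4 libraries fitted, ADE1 was not called (adjusted p = 0.066). Of the one-carbon, glycine and serine genes, which supply purine synthesis, 11 of the 21 genes tested were called, 8 higher and 3 lower in Sdc1_KO, and the median log2 fold change over the list was 0.24. Calls numbered 17 without Sdc1_KO replicate 2 and 7 without Dpy30_KO replicate 1. MTD1, a folate dehydrogenase, stood at 199 and 119 CPM in Sdc1_KO and 54.1 and 57.2 CPM in Dpy30_KO (1.51 ± 0.21, adjusted p = 2.3e-04), and SHM2, the cytosolic serine hydroxymethyltransferase, at 362 and 278 CPM in Sdc1_KO and 107 and 134 CPM in Dpy30_KO (1.41 ± 0.16, adjusted p = 5.3e-05). The formate dehydrogenases FDH1 (4.17 and 3.44 CPM in Sdc1_KO and 32.9 and 26 CPM in Dpy30_KO, -2.95 ± 0.30, adjusted p = 1.7e-05) and FDH2 (0.586 and 1.37 CPM in Sdc1_KO and 10.2 and 9.37 CPM in Dpy30_KO, -3.30 ± 0.41, adjusted p = 9.3e-05) went the other way. They are near copies of each other, so their fragments may be split wrongly, and FDH2 moved to -4.04 without Sdc1_KO replicate 2.

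Several mating genes of a cells were higher in Sdc1_KO. Of the a-specific genes, 4 of the 7 genes tested were called, 4 higher and 0 lower (0 at an unadjusted p under 0.05, 0 by DESeq2 and limma-trend) in Sdc1_KO, and the median log2 fold change over the list was 0.90. Of the 5 alpha-specific genes edgeR called 0 (2 at an unadjusted p under 0.05, both lower, and 0 by DESeq2 and limma-trend), with a median of -0.41. Calls numbered 2 without Sdc1_KO replicate 1 and 1 without Sdc1_KO replicate 2. STE3 was at 6.97 and 4.63 CPM in Sdc1_KO and 8.57 and 10.3 CPM in Dpy30_KO (-0.70 ± 0.29, adjusted p = 0.095) and WT at 1.41 and 1.84 CPM. STE2, the receptor for alpha factor, stood at 172 and 243 CPM in Sdc1_KO and 48 and 56.8 CPM in Dpy30_KO (1.99 ± 0.16, adjusted p = 2.3e-06). BAR1, which degrades alpha factor, was at 56.2 and 106 CPM in Sdc1_KO and 35.9 and 38.3 CPM in Dpy30_KO (1.13 ± 0.22, adjusted p = 0.0025), and STE6, the a-factor exporter, at 126 and 126 CPM in Sdc1_KO and 61.6 and 66.4 CPM in Dpy30_KO (0.98 ± 0.09, adjusted p = 1.2e-05). STE2, BAR1 and STE6 were expressed in both strains, and Dpy30_KO was below Sdc1_KO and WT for each (WT at 136 and 146 CPM for STE2). ASG7, the remaining called gene, was at 15 and 27.2 CPM in Sdc1_KO and 10.8 and 11.8 CPM in Dpy30_KO (0.90 ± 0.23, adjusted p = 0.012, edgeR quasi-likelihood test). Its value was 0.41 without Sdc1_KO replicate 2. With only the 4 libraries fitted, calls of the a-specific list numbered 2. MFA1, MFA2 and AGA2 were not called.

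Of the haploid-specific and pheromone response genes, 13 of the 30 genes tested were called, against 25% of all nuclear genes. In Sdc1_KO 12 were higher and 1 lower, and the median log2 fold change over the list was 0.11. The list has 4 members on chromosome III, all higher; without them 8 of 26 were higher, with a median of 0.07. Calls numbered 8 without Dpy30_KO replicate 1. KAR4, a transcription factor of mating on chromosome III, stood at 52.6 and 88.4 CPM in Sdc1_KO and 16.2 and 16.5 CPM in Dpy30_KO (2.11 ± 0.20, adjusted p = 1.2e-05). FUS1, a cell fusion protein, and FIG2, an adhesin of mating cells, both on that chromosome, had log2 fold changes of 2.05 and 2.04. AGA1, the agglutinin anchor on chromosome XIV, was at 73.9 and 170 CPM in Sdc1_KO and 30.4 and 33.7 CPM in Dpy30_KO (1.93 ± 0.29, adjusted p = 3.8e-04). Its value moved to 1.21 without Sdc1_KO replicate 2. STE12, the activator of these genes, was not called (0.23 ± 0.09, adjusted p = 0.077). Its element TGAAACA (either strand) was in the promoters of 9 of the 12 higher genes, in 17 of 30 of the list (56.7%) and in 12% of all promoters; FUS1 and AGA1 hold the following sites.
FUS1, chrIII:71607-71632, plus strand, 187 bases before the start: gtgcgatgaTGAAACAaacatgaaac
FUS1, chrIII:71634-71659, plus strand, 160 bases before the start: tctgtaattTGAAACAaataacgtaa
AGA1, chrXIV:703488-703513, plus strand, 202 bases before the start: ataattttcTGAAACAatattaaaac

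Many drug transporter genes were higher in Dpy30_KO. Of the list of multidrug transporters and targets of the activators Pdr1 and Pdr3, 15 of the 30 genes tested were called, 1 higher and 14 lower in Sdc1_KO, and the median log2 fold change over the list was -0.23. As background, loss of the mitochondrial genome is known to raise this pathway through Pdr3; mitochondrial DNA was not measured here. PDR5, its main efflux pump, stood at 2096 and 4349 CPM in Sdc1_KO and 8967 and 9384 CPM in Dpy30_KO (-1.51 ± 0.26, adjusted p = 0.001), with WT at 4545 and 3947 CPM. Sdc1_KO replicate 2 reached the WT level, and the log2 fold change moved to -2.13 without Sdc1_KO replicate 2. PDR15, a related pump, stood at 156 and 466 CPM in Sdc1_KO and 823 and 769 CPM in Dpy30_KO (-1.36 ± 0.33, adjusted p = 0.01) and was not called without Dpy30_KO replicate 1 (-1.31, adjusted p = 0.059, without Dpy30_KO replicate 1); without Sdc1_KO replicate 2 it moved to -2.36. AQR1, an exporter of acids and amino acids, was at 28.1 and 17.2 CPM in Sdc1_KO and 84.2 and 104 CPM in Dpy30_KO (-2.06 ± 0.19, adjusted p = 7.4e-06), apart from WT (9.01 and 10.6 CPM). PDR3 itself was lower in Sdc1_KO (51.1 and 44.5 CPM in Sdc1_KO and 68.6 and 70.9 CPM in Dpy30_KO, -0.54 ± 0.10, adjusted p = 0.0014), and PDR1 was not called (-0.02 ± 0.10, adjusted p = 0.89). LAC1, a ceramide synthase, was the member in the other direction (1.04 ± 0.16, adjusted p = 5.6e-04). The element TCCGCGGA, the same on both strands, was in the promoters of 4 of the 14 lower genes, in 6 of 30 of the list (20%) and in 0.622% of all promoters. PDR5 and PDR15 hold these sites.
PDR5, chrXV:619340-619365, plus strand, 491 bases before the start: ccctctcttTCCGCGGAatcgctcat
PDR5, chrXV:619518-619543, plus strand, 313 bases before the start: agaaatgtcTCCGCGGAactcttcta
PDR15, chrIV:1278822-1278847, plus strand, 379 bases before the start: catgctcgtTCCGCGGAgagtctcga

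Many cell wall and surface genes were lower in Sdc1_KO: 14 of the 31 genes tested were called, 1 higher and 13 lower. Over all nuclear genes 25% were called, 13.7% higher and 11.2% lower. The median log2 fold change over the cell wall list was -0.44, with these further counts for that list. Calls numbered 22 without Sdc1_KO replicate 2. PIR3, a wall glycoprotein, stood at 431 and 681 CPM in Sdc1_KO and 1385 and 1465 CPM in Dpy30_KO (-1.36 ± 0.18, adjusted p = 1.5e-04), and PST1, a protein raised by wall damage, at 379 and 621 CPM in Sdc1_KO and 1099 and 1011 CPM in Dpy30_KO (-1.08 ± 0.18, adjusted p = 0.001). UTH1, which is found in the wall and in mitochondria, stood at 688 and 794 CPM in Sdc1_KO and 1419 and 1506 CPM in Dpy30_KO (-0.98 ± 0.11, adjusted p = 4.7e-05). WT lay with Sdc1_KO for PIR3 (445 and 435 CPM) and PST1 (396 and 421 CPM) and between the strains for UTH1 (1016 and 956 CPM). GSC2, a glucan synthase, was lower as well (-0.96 ± 0.15, adjusted p = 6.8e-04).

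Called genes of phospholipid synthesis under inositol control were mostly lower: 9 of the 16 genes tested were called, against 25% of all nuclear genes. In Sdc1_KO 2 were higher and 7 lower, against 13.7% and 11.2% of all nuclear genes. The median log2 fold change over the list was -0.22. Calls numbered 5 without Dpy30_KO replicate 2. INO1, inositol-phosphate synthase, stood at 26.1 and 48.5 CPM in Sdc1_KO and 80.3 and 78.1 CPM in Dpy30_KO (-1.08 ± 0.20, adjusted p = 0.0017), OPI3, which completes phosphatidylcholine, at 232 and 272 CPM in Sdc1_KO and 463 and 475 CPM in Dpy30_KO (-0.90 ± 0.10, adjusted p = 4.2e-05), and ITR1, the inositol carrier, at 728 and 833 CPM in Sdc1_KO and 1442 and 1419 CPM in Dpy30_KO (-0.87 ± 0.11, adjusted p = 1.5e-04). Dpy30_KO was the highest of the 3 strains for all 3 genes, with WT at 427 and 441 CPM for ITR1.

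Called hexose transporter genes and regulators were mostly lower in Sdc1_KO, while called genes of gluconeogenesis and acetate use went both ways. The counts of both lists compare with 25% called over all nuclear genes, 13.7% higher and 11.2% lower. Of the hexose transporters and their regulators, 11 of the 23 genes tested were called, 2 higher and 9 lower in Sdc1_KO, and the median log2 fold change over the list was -0.24, and calls numbered 7 without Dpy30_KO replicate 1 and 7 without Dpy30_KO replicate 2. MIG2, a glucose repressor, stood at 38.1 and 66.7 CPM in Sdc1_KO and 166 and 185 CPM in Dpy30_KO (-1.74 ± 0.19, adjusted p = 4.3e-05). MTH1, a regulator of transporter genes, was lower (-0.85 ± 0.16, adjusted p = 0.0025); HXT6 was higher (0.73 ± 0.15, adjusted p = 0.0039), and is uncertain because it is a near copy of HXT7. Of gluconeogenesis, glyoxylate and acetate genes, 11 of the 25 genes tested were called, 6 higher and 5 lower in Sdc1_KO, and the median log2 fold change over the list was -0.05. Among the 6 higher genes, 1 lies on chromosome III. Calls numbered 6 without Dpy30_KO replicate 1. MDH2, the cytosolic malate dehydrogenase, stood at 48 and 50.9 CPM in Sdc1_KO and 223 and 223 CPM in Dpy30_KO (-2.17 ± 0.10, adjusted p = 2.3e-08), and PCK1, which commits carbon to gluconeogenesis, at 78.6 and 71.3 CPM in Sdc1_KO and 211 and 175 CPM in Dpy30_KO (-1.37 ± 0.16, adjusted p = 4.9e-05). The strains were apart in both, with WT between them for MDH2 (124 and 106 CPM) and below both for PCK1 (21.1 and 18.5 CPM). MLS1, a malate synthase, was higher (0.87 ± 0.15, adjusted p = 0.0013).

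Some sporulation genes, which are mostly silent in growing cells, were lower in Sdc1_KO. Of the middle and late genes, 15 of the 42 genes tested were called, 2 higher and 13 lower in Sdc1_KO, and the median log2 fold change over the list was -0.34, and the 2 higher genes lie on chromosome III. Calls numbered 5 without Dpy30_KO replicate 1. SPO74, of the meiotic spindle pole body, stood at 6.91 and 8.55 CPM in Sdc1_KO and 16.1 and 16.1 CPM in Dpy30_KO (-1.06 ± 0.22, adjusted p = 0.0047), and both strains were above WT (1.67 and 1.93 CPM). SPR28, a septin of sporulation, was at 7.3 and 6.29 CPM in Sdc1_KO and 13 and 11.8 CPM in Dpy30_KO (-0.87 ± 0.23, adjusted p = 0.015), a call that ended without Dpy30_KO replicate 1 (-0.80, adjusted p = 0.1, without Dpy30_KO replicate 1). Of early meiosis genes, 4 of the 28 genes tested were called, against 25% of all nuclear genes. In Sdc1_KO 2 were higher and 2 lower, and the median log2 fold change over the list was -0.10. Calls numbered 1 without Dpy30_KO replicate 1 and 1 without Dpy30_KO replicate 2. UME6, which represses them in growing cells, was lower (-0.50 ± 0.09, adjusted p = 0.0019). HUG1, a small inhibitor of ribonucleotide reductase raised by DNA damage, led the 7 of 19 checkpoint targets that were lower, with 0 higher (1 at an unadjusted p under 0.05, 0 by DESeq2 and limma-trend) and a median of -0.26. It stood at 11.7 and 4.04 CPM in Sdc1_KO and 46 and 54.4 CPM in Dpy30_KO (-2.69 ± 0.31, adjusted p = 5.3e-05). The value moved to -3.64 without Sdc1_KO replicate 1 and to -2.10 without Sdc1_KO replicate 2. Calls of that list numbered 3 without Dpy30_KO replicate 1 and 3 without Dpy30_KO replicate 2.

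In the lists for ribosome synthesis the share called, both directions together, was at or below the 25% of all nuclear genes. By direction, the share of 60S assembly factors called lower was above the 11.2% of all nuclear genes, though those calls depended on the libraries used. Of the cytosolic ribosomal proteins, 21 of the 136 genes tested were called, 6 higher and 15 lower in Sdc1_KO, and the median log2 fold change over the list was -0.04. Calls numbered 43 without Sdc1_KO replicate 2, 8 without Dpy30_KO replicate 1 and 9 without Dpy30_KO replicate 2. Besides the RPS14 pair, RPL7B stood at 82.6 and 98 CPM in Sdc1_KO and 38.6 and 44.8 CPM in Dpy30_KO (1.12 ± 0.14, adjusted p = 1.1e-04) and RPS9A at 115 and 102 CPM in Sdc1_KO and 54.3 and 59.1 CPM in Dpy30_KO (0.94 ± 0.13, adjusted p = 3.0e-04). Of 60S assembly factors, 13 of the 57 genes tested were called, 0 higher (1 at an unadjusted p under 0.05, 0 by DESeq2 and limma-trend) and 13 lower in Sdc1_KO, and the median log2 fold change over the list was -0.20. Calls numbered 30 without Sdc1_KO replicate 2 and 3 without Dpy30_KO replicate 1. RPF1 was at 60.1 and 77.2 CPM in Sdc1_KO and 119 and 103 CPM in Dpy30_KO (-0.69 ± 0.13, adjusted p = 0.0022). Of the small-subunit processome, 11 of the 50 genes tested were called, 4 higher and 7 lower in Sdc1_KO, and the median log2 fold change over the list was -0.14, and 3 of the 4 higher genes lie on chromosome III; calls numbered 22 without Sdc1_KO replicate 2 and 7 without Dpy30_KO replicate 1.

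Calls among chromatin genes near Set1 in function depended on the libraries used. Their shares compare with 25% called over all nuclear genes, 13.7% higher and 11.2% lower. Of the Set3 complex, which reads H3K4 methylation, 1 of 7 was called, SNT1 on chromosome III (2 without Sdc1_KO replicate 2). Of the genes for H2B ubiquitination and the Paf1 complex, 2 of 12 were called, both lower. Calls numbered 4 without Sdc1_KO replicate 1, 6 without Sdc1_KO replicate 2, 1 without Dpy30_KO replicate 1 and 1 without Dpy30_KO replicate 2. Of the 8 core histone genes edgeR called 0 (2 higher at an unadjusted p under 0.05, 1 by DESeq2 and 0 by limma-trend), but calls numbered 4 without either Sdc1_KO replicate. Of the 5 JmjC genes it called 0 (0 at an unadjusted p under 0.05 and 0 by both other tools), and 1 without either Sdc1_KO replicate. Of the silencing factors, 4 of the 15 genes tested were called, 1 higher and 3 lower in Sdc1_KO, and the median log2 fold change over the list was -0.15. Calls numbered 2 without Dpy30_KO replicate 1 and 2 without Dpy30_KO replicate 2. SIR4 stood at 148 and 146 CPM in Sdc1_KO and 199 and 203 CPM in Dpy30_KO (-0.45 ± 0.09, adjusted p = 0.0035). Within 30 kb of a chromosome end, chromosome III left out, 31 of 300 genes were higher and 49 lower (26.7% called, against 24.5% of the 5374 genes further in). The subtelomeric COS genes were an exception in direction: 4 of the 8 genes tested were called, 4 higher and 0 lower (0 at an unadjusted p under 0.05, 0 by DESeq2 and limma-trend) in Sdc1_KO, and the median log2 fold change over the list was 0.53. Calls numbered 2 without Sdc1_KO replicate 1 and 0 without Dpy30_KO replicate 1. COS8 stood at 90.2 and 28.6 CPM in Sdc1_KO and 16.6 and 12.1 CPM in Dpy30_KO (2.04 ± 0.50, adjusted p = 0.011), and the call ended without Sdc1_KO replicate 1 (0.97, adjusted p = 0.052, without Sdc1_KO replicate 1) and without either Dpy30_KO replicate (2.29, adjusted p = 0.056, without Dpy30_KO replicate 1; 1.84, adjusted p = 0.084, without Dpy30_KO replicate 2); without Sdc1_KO replicate 2 the value was 2.64.

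**Figure D5:**
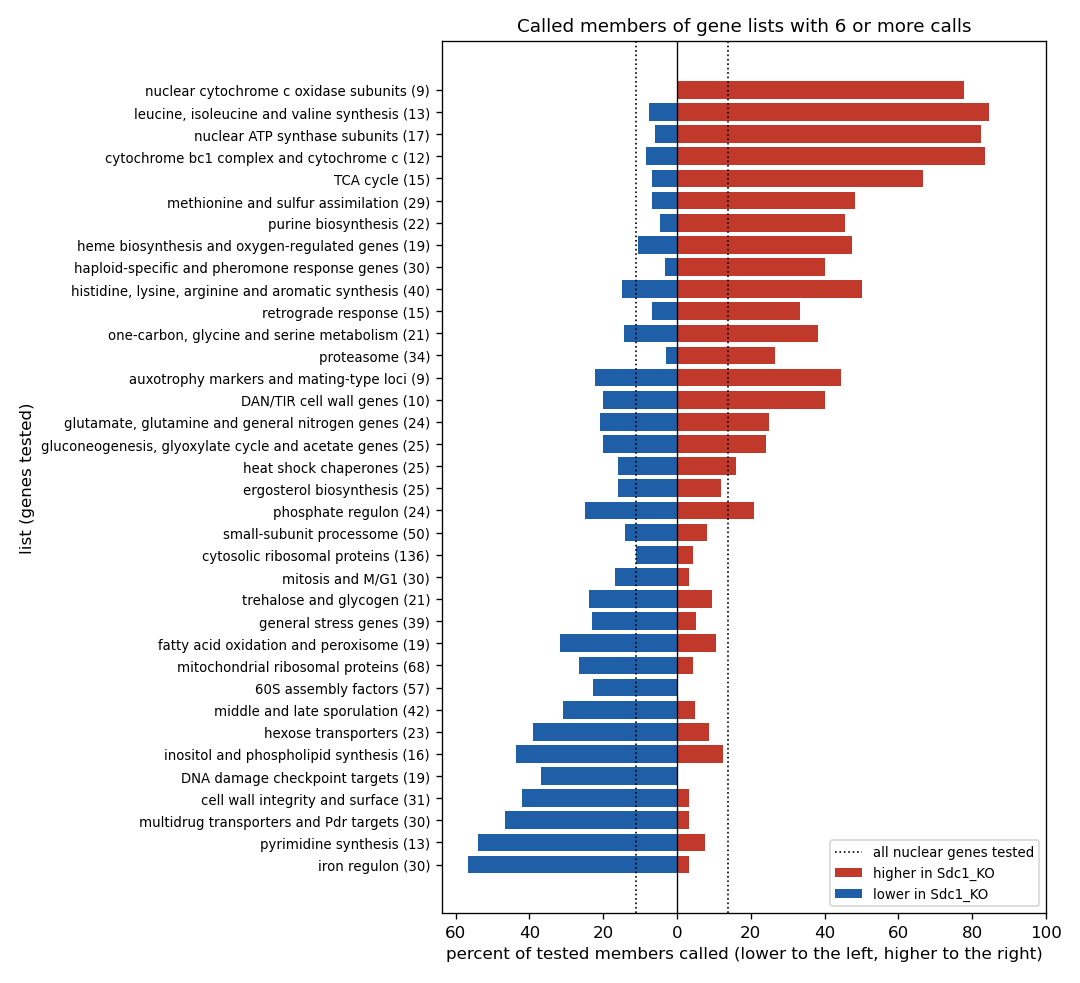
Percent of the tested members of 36 gene lists with at least 6 calls that were called higher (right) or lower (left) in Sdc1_KO, with the number tested in brackets and dotted lines at 13.7% and 11.2%, the shares over all nuclear genes. Respiratory and branched amino acid lists lie to the right, and iron, pyrimidine, drug transporter and cell wall lists to the left.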

How the data were processed

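RNA was measured in 12 libraries of 6 groups; 4 libraries enter the comparison described. Per the labels' protocols, ribosomal RNA was depleted from total RNA before directional library preparation. Per the submitters' processing notes, bcl2fastq 2.17.1.14, TopHat and Cufflinks were used with the build sacCer3; the strand setting and annotation are not given in the sources used here. The deposited table, made by the authors with no pooling stated, holds expected counts of fragments, not normalized (97.8% whole), and the authors' FPKM, scaled by transcript length and depth, used here only for the chromosome medians.

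Counts were rounded and fitted with edgeR 4.0.16 (R 4.3.3) over all 12 libraries and 6 groups, with its default expression filter (6361 of 7112 identifiers kept), TMM scaling and the quasi-likelihood test. P-values were adjusted by Benjamini-Hochberg over all identifiers tested, with calls at an adjusted value under 0.05. Errors of log2 fold changes are standard errors. CPM values use TMM-scaled library sizes, and no spike-in is named in the labels, so every level is relative to the RNA of its library. The common biological coefficient of variation was 10.2%. On simulated counts (6322 genes), 71.6% of 1.5-fold, 98.5% of 2-fold and 100% of 4-fold changes were recovered. The simulation gave every gene and group this common variation, and only genes averaging 5 CPM or more received a change. The real Sdc1_KO libraries spread more (standard deviation 0.429, against 0.247 in WT and 0.271 in Dpy30_KO). The rates therefore do not give the recovery in the real comparison, which was not tested. Depth per library is given in the report; no molecular identifiers separate PCR copies.

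Identifiers were matched to RefSeq R64, the same build (6048 by locus tag, 114 by symbol, 964 unmatched). Genes with a copy of at least 95% identity over 50% of their length (blastn 2.17.0), or overlapped over 10%, are called uncertain where named. Promoters are the 500 bases before the annotated gene start.

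Named genes are SDC1, its neighbours, JHD2 and the Set1 complex; the 15 genes most raised and the 15 most lowered among called genes with at least 5 CPM and groups that do not overlap; the 10 called genes of highest CPM that differ at least 2-fold; and, per list with 3 or more calls, up to 5 members with the largest difference and up to 2 against the direction of most. The regulators (RTG1, RTG2, RTG3, HAP4, AFT1, AFT2, LEU3, PPR1, GCN4, STE12, PDR1, PDR3), COX5B, COX13, SRD1, FEN2, STE3 and the MAK32 to RHB1 genes were added after their values were seen. The comparison, its members and the 61 gene lists were chosen with earlier results of these data known. Alternatives were other scaling, filters, tools (DESeq2 1.42.0, limma-trend 3.58.1), library sets, replicate blocks, a 1.2-fold test and leaving out each library.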

Additional observations from a re-analysis of the deposited data

How the results depend on the processing

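The depth and the 2 libraries per strain limit the smaller differences. Calls numbered 1583, with 870 higher in Sdc1_KO and 713 lower. Fitting only the 4 libraries gave 483 (277 higher, 206 lower), and testing against a 1.2-fold difference 725 (408 and 317). Leaving out 1 library at a time gave 788 to 2216 calls, 442 to 1042 higher and 346 to 1199 lower; the fewest came without Dpy30_KO replicate 1 and the most calls without Sdc1_KO replicate 2. The cause was not tested. With 1 library left, a strain is assumed to vary like the other groups. Adjusted p-values of such fits, here and above, therefore hold no spread of that strain. RLE scaling, DESeq2, limma-trend, both filters, nuclear or matched identifiers only and leaving out chromosome III kept the count within 1.5 times (1448 to 1614). Calls of at least 2-fold (210 to 378) and higher calls on chromosome III (103 to 131) stayed within 1.5 times under every alternative that could be run for them.

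Equal replicate numbers are not stated to mark a shared culture or day, and the replicate deviations of same-numbered Sdc1_KO and Dpy30_KO libraries had a correlation of -0.13. A replicate block gave 1649 calls in the fit of 12 libraries and 735 (395 higher, 340 lower) in that of 4. With the pairing crossed, chosen after seeing the data, the block gave 823 calls (433 higher, 390 lower).

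Of the 254 named genes that were called, 138 were called in the same direction under every alternative. The fit of only the 4 libraries kept 144 of these calls and lost 110, most of which are not marked above. Among the lost calls were ADE1, BAR1, INO1, OLE1, ARG1, MET22, RSM19, FRE6, ZRC1 and COX6. YCR024C-B, in the MAK32 to RHB1 stretch of chromosome III, was not called with all libraries. Its log2 fold change ran from -0.39 (without Sdc1_KO replicate 2) to 0.43 when 1 library was left out.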

Other observations

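The lists of this section compare with 25% called over all nuclear genes, 13.7% higher and 11.2% lower. Of the proteasome genes, 10 of the 34 genes tested were called, 9 higher and 1 lower in Sdc1_KO, all by small amounts. The median log2 fold change over the list was 0.20. Calls numbered 20 without Sdc1_KO replicate 1, 1 without Dpy30_KO replicate 1 and 3 without Dpy30_KO replicate 2. RPN13, a ubiquitin receptor, stood at 115 and 125 CPM in Sdc1_KO and 79.3 and 81.1 CPM in Dpy30_KO (0.58 ± 0.09, adjusted p = 6.0e-04). The Rpn4 element GGTGGCAAA (either strand) was in 27 of the 34 promoters of the list (79.4%), among them 5 of the 9 higher genes and the lower gene, and in 1.64% of all promoters. Of the general stress genes, 11 of the 39 genes tested were called, 2 higher and 9 lower in Sdc1_KO, and the median log2 fold change over the list was -0.25. Among the 2 higher genes, 1 lies on chromosome III. Calls numbered 27 without Sdc1_KO replicate 2 and 7 without Dpy30_KO replicate 1. RCK1, a kinase of the oxidative stress response, stood at 9.12 and 6.77 CPM in Sdc1_KO and 33.5 and 27.8 CPM in Dpy30_KO (-1.95 ± 0.21, adjusted p = 2.6e-05), and GPX2, a glutathione peroxidase, at 13.9 and 17.1 CPM in Sdc1_KO and 47.8 and 36.9 CPM in Dpy30_KO (-1.45 ± 0.17, adjusted p = 5.3e-05). WT was at 3.38 and 2.68 CPM for RCK1, below both strains, and at 15.1 and 17.1 CPM for GPX2, with Sdc1_KO. Of the genes for fatty acid oxidation and peroxisomes, 8 of the 19 genes tested were called, 2 higher and 6 lower in Sdc1_KO, and the median log2 fold change over the list was -0.20. Calls numbered 4 without Dpy30_KO replicate 1. POX1, the first enzyme of beta-oxidation, stood at 15.6 and 10.6 CPM in Sdc1_KO and 27.9 and 33.3 CPM in Dpy30_KO (-1.22 ± 0.20, adjusted p = 7.2e-04).

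Of the phosphate regulon, 11 of the 24 genes tested were called, 5 higher and 6 lower in Sdc1_KO, and the median log2 fold change over the list was -0.11, and 2 of the higher genes lie on chromosome III. Calls numbered 7 without Sdc1_KO replicate 1, 4 without Dpy30_KO replicate 1 and 4 without Dpy30_KO replicate 2. PHO5, the secreted acid phosphatase, stood at 24.2 and 18.6 CPM in Sdc1_KO and 37.6 and 39.3 CPM in Dpy30_KO (-0.85 ± 0.13, adjusted p = 6.5e-04), a small difference without overlap. Of the heat shock chaperones, 8 of the 25 genes tested were called, 4 higher and 4 lower in Sdc1_KO, and the median log2 fold change over the list was -0.08. Calls numbered 16 without Sdc1_KO replicate 2, 3 without Dpy30_KO replicate 1 and 4 without Dpy30_KO replicate 2. SSA2 stood at 665 and 633 CPM in Sdc1_KO and 296 and 271 CPM in Dpy30_KO (1.19 ± 0.12, adjusted p = 2.5e-05), uncertain as a near copy of SSA1, while SSA3 was lower (-0.76 ± 0.14, adjusted p = 0.0021). RIB4, the lumazine synthase of riboflavin synthesis, belongs to no list and was among the largest falls, at 153 and 151 CPM in Sdc1_KO and 644 and 601 CPM in Dpy30_KO (-2.04 ± 0.12, adjusted p = 1.8e-07), with WT between the strains (254 and 290 CPM).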
